A study of Mus musculus with 4 samples.

Results

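The metallothionein and zinc-sensing genes of the mouse were followed in spermatogonia that had lost *Cnot3*. They are 5 genes chosen by symbol: the metallothioneins *Mt1*, *Mt2* and *Mt3*, the metal-sensing transcription factor *Mtf1*, and *Slc30a1*, which encodes the zinc exporter ZnT1. They are 5 of 54920 genes listed in the count tables, and all 5 were among the 23952 genes that had enough reads to be tested. CNOT3 is a subunit of the CCR4-NOT complex, which shortens poly(A) tails and so starts the decay of mRNA. RNA was sequenced from ID4-EGFP+ cells, a population rich in spermatogonial stem cells, sorted from testes at postnatal day 8. The control group came from *Cnot3* flox/flox; *Id4-eGfp* mice without Cre, which the labels call wild type although both floxed alleles are present. The *Cnot3*-cKO group carried *Ddx4-creER* in addition to the floxed alleles and *Id4-eGfp*, so that the germ cell promoter of *Ddx4* drives a Cre that 4-OHT activates. Mice of both groups received 4-OHT from day 1 to day 3 after birth. There were 2 libraries per group. The study describes its RNA-seq as made from biological replicates, and its legend counts more of them per group than the libraries used here. The labels number the replicates without naming animals, and neither source says how many mice were pooled for a library, so p-values measure only the spread between these libraries.

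Metallothioneins are small cysteine-rich proteins that bind zinc and copper, buffer free zinc and react with oxidants. When free zinc rises, MTF1 binds it through its zinc fingers and occupies metal response elements (MREs), short sequences in the promoters of its targets. *Mt1*, *Mt2* and *Slc30a1* are its best known targets: the first pair stores zinc, and ZnT1 carries it out of the cell through the plasma membrane. MT3 is best known as the metallothionein of neurons, and *Mt4*, the last gene of the mouse cluster, is known from stratified epithelia. Glucocorticoids and STAT3 can also induce *Mt1* and *Mt2*. In the testis, zinc is needed for germ cells to develop, and metallothioneins are made by both germ cells and somatic cells.

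The promoters of the 3 metallothioneins and of *Slc30a1* are shown because these genes are classed together as MRE genes but did not behave alike here. Each sequence runs 5′ to 3′ on the strand of its gene from 250 bases before to 50 bases after the RefSeq transcript start, on GRCm38.p6, and capitals mark the core of an MRE on either strand. The windows are chr8:94178839-94179138 for *Mt1*, chr8:94172368-94172667 for *Mt2*, chr8:94152357-94152656 for *Mt3* and chr1:191906531-191906830 for *Slc30a1*, all on the forward strand. All 5 members had an entry in the RefSeq promoter table, and *Mtf1* is not shown because its window held 0 MRE cores.
Mt1: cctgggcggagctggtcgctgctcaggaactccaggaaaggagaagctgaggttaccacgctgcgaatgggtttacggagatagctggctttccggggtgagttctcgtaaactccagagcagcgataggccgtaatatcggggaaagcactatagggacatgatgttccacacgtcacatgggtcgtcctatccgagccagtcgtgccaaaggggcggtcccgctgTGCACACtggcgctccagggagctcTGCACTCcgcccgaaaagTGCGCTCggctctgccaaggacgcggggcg
Mt2: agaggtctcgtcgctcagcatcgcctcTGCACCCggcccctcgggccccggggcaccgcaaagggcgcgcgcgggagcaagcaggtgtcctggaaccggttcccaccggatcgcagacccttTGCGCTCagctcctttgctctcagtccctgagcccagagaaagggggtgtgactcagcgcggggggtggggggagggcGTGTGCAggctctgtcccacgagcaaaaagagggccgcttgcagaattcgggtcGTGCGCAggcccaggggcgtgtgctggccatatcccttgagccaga
Mt3: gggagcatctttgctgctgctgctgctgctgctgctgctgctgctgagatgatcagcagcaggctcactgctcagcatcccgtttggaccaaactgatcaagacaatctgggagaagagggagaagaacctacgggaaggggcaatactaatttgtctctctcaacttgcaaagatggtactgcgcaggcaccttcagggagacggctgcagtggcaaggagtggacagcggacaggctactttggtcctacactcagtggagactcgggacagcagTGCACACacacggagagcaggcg
Slc30a1: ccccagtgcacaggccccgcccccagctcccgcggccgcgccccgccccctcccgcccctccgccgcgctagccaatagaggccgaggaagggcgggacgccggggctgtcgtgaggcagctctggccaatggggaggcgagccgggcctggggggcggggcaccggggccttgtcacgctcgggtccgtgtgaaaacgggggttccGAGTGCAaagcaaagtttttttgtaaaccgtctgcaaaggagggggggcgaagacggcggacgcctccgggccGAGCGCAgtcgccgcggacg

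The MRE core was searched on both strands as TGCACNC and as TGCGCNC. Over 32851 RefSeq promoters of the same length, 12.6% held the first form and 15.4% the second. At least 1 core of either form was in 25.7% of promoters, at least 2 in 7.11%, at least 3 in 1.97% and at least 4 in 0.517%. *Mt1* held 3 cores, with first bases at -23, 3 and 21 from the start, all on the strand of the gene. *Mt2* held 4, at -223 and -128 on its own strand and at -50 and 5 on the other. *Mt3* held 1, at 28 on its own strand, and *Slc30a1* held 2, at -43 and 31, both on the opposite strand. *Mt4*, which lies in the same cluster, held 1 core at -91. The core of an antioxidant response element, TGACNNNGC, was in 12.4% of promoters and occurred at -79 in *Mt2* and at -82 on the opposite strand of *Slc30a1*. These are matches of letters, and binding was not measured.

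The annotated starts of the metallothioneins are spread, and the start taken decides whether a core lies in the promoter or in the leader. GENCODE M21 has *Mt1* transcripts that start at -7, 123 and 153 from the RefSeq start, of which the first is the principal one, and a TATAAA word begins at 122. The *Mt2* transcripts start at 47, the principal one, and at 243. The *Mt3* transcripts start at 1, the principal one, and at 140. In *Mt2* and *Mt3* a TATAAA word begins at 136 and at 107. None of the 3 promoter windows held that word. A search of the last 180 bases before the start codon, chosen after the promoter matches were seen, found 2 cores in *Mt1*, at 85 and 99 from the RefSeq start. It found 3 in *Mt2*, at 59, 78 and 112. It also found 3 in *Mt3*, of which 1 is the core already counted in its promoter window and the others begin at 55 and 87. All cores found in these leaders thus begin before the TATAAA word. Among 7789 tested genes with a leader of that length, 4.42% held at least 2 cores and 0.757% at least 3. The leader of *Slc30a1* held 0 cores, and the leader of *Mtf1* was too short for the search. Counting both windows, *Mt2* held 7 cores, *Mt1* 5, *Mt3* 3 and *Slc30a1* 2, while the 0 of *Mtf1* is for its promoter window alone.

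**Figure D1:**
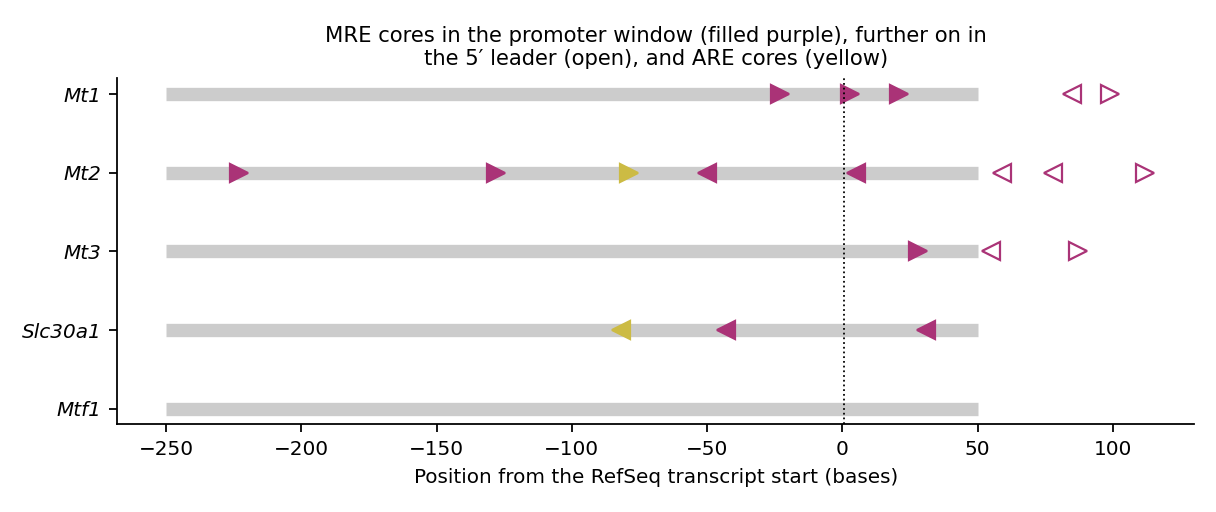
Position of MRE cores (purple) and antioxidant response element cores (yellow) from the RefSeq transcript start, in bases; the grey bar is the promoter window, open symbols lie further on in the 5′ leader, and the direction of a triangle gives the strand relative to the gene. *Mt1* and *Mt2* carry cores on both sides of the RefSeq start, *Mt3* only after it, and *Slc30a1* carries 2. The 3 metallothioneins also have annotated starts further on, which are not marked. *Mtf1* carries 0 in its promoter window, and its leader was not searched.

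The libraries held 40957899 and 43378493 counted reads in controls against 22192964 and 28019626 in *Cnot3*-cKO cells. *Cnot3* itself, on chromosome 7 of GRCm38 from 3645268 to 3661109, had 2362 and 2114 reads in controls against 435 and 571 in *Cnot3*-cKO cells (log2 fold change -1.48, standard error 0.13, adjusted p = 1.48e-05 by edgeR's quasi-likelihood test), in the direction of the labels. Genes counted as called had an adjusted p under 0.01 (Benjamini-Hochberg over all tested genes) together with a fold change above 2, the thresholds of the study. Of all tested genes 4.03% were called higher and 0.735% lower, and the median log2 fold change was 0.01. Levels are CPM, read counts scaled to TMM-normalized library sizes, unless given per length. An exact permutation test of 2 libraries against 2 reaches a two-sided p of 0.333 at best, and each adjusted p therefore rests on the dispersion fitted across genes.

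*Mt1* and *Mt2* were about 2 times as abundant in *Cnot3*-cKO cells as in control cells, *Mt3* was higher at a much lower level, and *Mtf1* and *Slc30a1* were close to their control levels. Of the 5 members, 1 was called higher and 0 lower, where 4.03% and 0.735% of all tested genes were. With no limit on the fold change 2 members passed higher, *Mt1* and *Mt2*, and 0 lower, where 6.21% of all tested genes passed higher and 4.7% lower. In 3 members both *Cnot3*-cKO values exceeded both control values, which held for 30.5% of all tested genes. In the other 2, *Mtf1* and *Slc30a1*, both lay below, which held for 28.6%.

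*Mt1* encodes one of the metallothioneins that most tissues make. The gene occupies bases 94179082 to 94180327 of chromosome 8 (GRCm38, forward strand). Its reads numbered 1171 and 1878 in control replicates 1 and 2 and 1613 and 2561 reads in *Cnot3*-cKO replicates 1 and 2, or 29.1, 44.6, 71.2 and 89.4 CPM in that order. The groups did not overlap, although the controls differed from each other by 1.54 times and the lower *Cnot3*-cKO library was 1.60 times the higher control. The mean was 36.9 ± 11 CPM in controls against 80.3 ± 12.9 CPM in *Cnot3*-cKO cells (SD, n = 2 per group). The log2 fold change came to 1.12 (standard error 0.17, 95% interval 0.745 to 1.503, adjusted p = 8.28e-04), a 2.18-fold rise, and it was called higher. The call did not hold under every setting. DESeq2 gave 1.09 with an adjusted p of 0.0125, over the threshold, where 18 alternatives ranged from 1.72e-19 to 1. Without control replicate 1 or *Cnot3*-cKO replicate 2 the log2 fold change was 0.83 or 0.94, under the fold limit.

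*Mt2* encodes the metallothionein that is usually made together with MT1. It lies on the forward strand of chromosome 8 from 94172664 to 94173568, with 5513 bases between it and *Mt1*. It had 641 and 890 reads in controls against 758 and 1036 in *Cnot3*-cKO cells, or 15.9, 21.2, 33.5 and 36.2 CPM. Again the groups did not overlap, and the second library of each group was the higher one, as in *Mt1*. The mean was 18.5 ± 3.70 CPM in controls against 34.8 ± 1.92 CPM in *Cnot3*-cKO cells (SD, n = 2 per group). The log2 fold change came to 0.91 (standard error 0.16, 95% interval 0.57 to 1.25, adjusted p = 0.00157), or 1.88 times, so it passed on p but not on the fold limit. Without control replicate 2 the value was 1.12, and it was called. An antisense gene, *Gm45774*, overlaps *Mt2* and held 124, 104, 90 and 180 reads. The kit kept strand, but the strand setting of the counting is not given in the sources used here, so how reads of this overlap were assigned is unknown.

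*Mt3* lies on the same strand from 94152607 to 94154146, 18517 bases before *Mt2*. It had 36 and 30 reads in controls against 44 and 67 in *Cnot3*-cKO cells, or 0.894, 0.713, 1.94 and 2.34 CPM. The groups were apart, with 2.17 times between the nearest libraries. The estimate was a log2 fold change of 1.41 with a wide error (standard error 0.41, 95% interval 0.52 to 2.30, adjusted p = 0.0282), and it was not called. DESeq2 with a prior on fold changes gave 0.82. *Mt4*, the remaining gene of the cluster, had 1 and 0 reads in controls against 0 and 6 in *Cnot3*-cKO cells and was not tested.

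*Mtf1*, the sensor, occupies bases 124802104 to 124849800 of the forward strand of chromosome 4. The gene had 2126 and 2219 reads in controls against 1121 and 1360 in *Cnot3*-cKO cells, or 52.8, 52.7, 49.5 and 47.5 CPM. The groups did not overlap but lay close, with a mean of 52.8 ± 0.0308 CPM in controls against 48.5 ± 1.41 CPM in *Cnot3*-cKO cells (SD, n = 2 per group). The log2 fold change was -0.12 (standard error 0.11, 95% interval -0.35 to 0.11, adjusted p = 0.475), so that no difference passed the test and a change past 2-fold in either direction lay outside the interval. *Mtf1* mRNA does not report the activity of the protein, which zinc controls.

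*Slc30a1*, the gene of the exporter ZnT1, occupies bases 191906767 to 191913247 of the forward strand of chromosome 1. Its reads came to 2943 and 3190 in controls against 1554 and 1960 in *Cnot3*-cKO cells, or 73.1, 75.8, 68.6 and 68.4 CPM. As in *Mtf1*, the *Cnot3*-cKO values lay slightly below both control values, with means of 74.4 ± 1.95 and 68.5 ± 0.111 CPM (SD, n = 2 per group). The estimate was -0.12 on the log2 scale (standard error 0.10, 95% interval -0.33 to 0.09, adjusted p = 0.44). Its interval did not reach the lower bound of *Mt1* or of *Mt2*. The antisense gene *1700034H15Rik* overlaps it and held 64 to 98 reads per library.

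**Figure D2:**
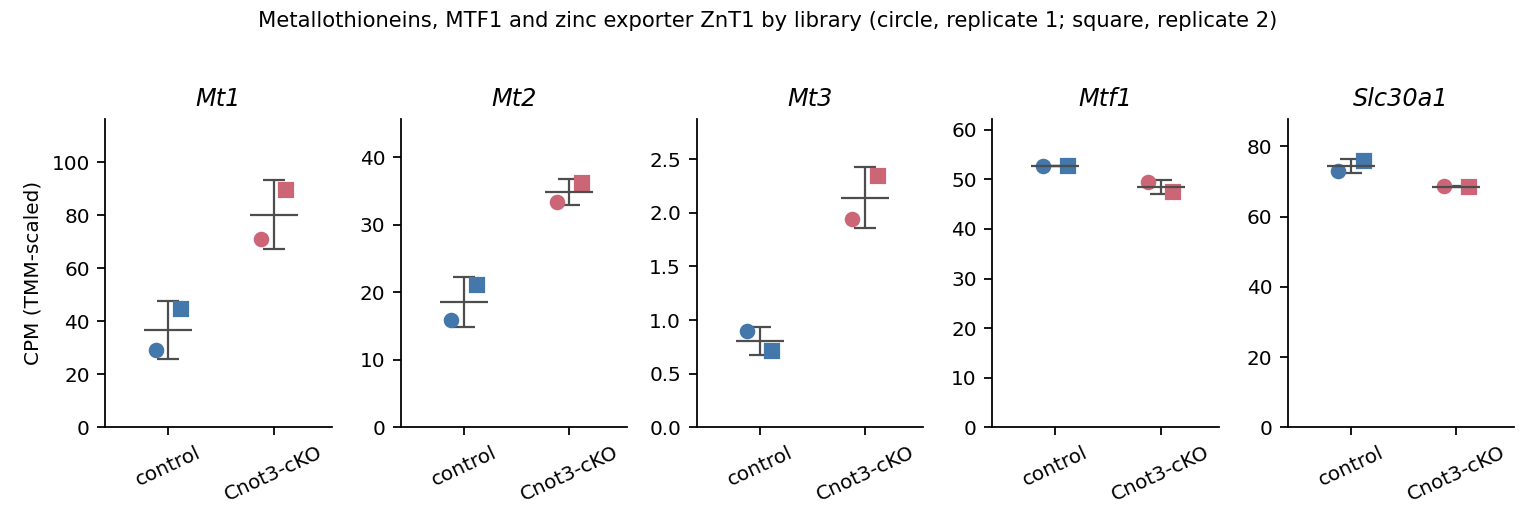
Level of each member in each library, in TMM-scaled CPM on a linear axis from 0; circles are replicate 1, squares replicate 2, and bars give the mean ± SD of 2 libraries. In *Mt1*, *Mt2* and *Mt3* the *Cnot3*-cKO points lie above both control points, and in *Mtf1* and *Slc30a1* both lie slightly below.

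Ratios of 2 members within a library do not depend on how libraries are scaled. There were 0.398 and 0.589 *Mt1* reads per *Slc30a1* read in controls against 1.04 and 1.31 in *Cnot3*-cKO cells, so the metallothionein passed the zinc exporter in read number only in the latter. Reads of *Mt1* per read of *Mtf1* went the same way, at 0.551 and 0.846 in controls against 1.44 and 1.88 in *Cnot3*-cKO cells. *Mt2* reads per *Slc30a1* read were 0.218 and 0.279 against 0.488 and 0.529. In these 3 ratios the groups did not overlap. *Slc30a1* reads per *Mtf1* read were 1.38 and 1.44 in controls against 1.39 and 1.44 in *Cnot3*-cKO cells, where the groups overlapped. *Mt1* reads per *Mt2* read were 1.83 and 2.11 against 2.13 and 2.47, which differed less than *Mt1* did from *Slc30a1*, and *Mt1* reads per *Mt3* read overlapped between groups, at 32.5 and 62.6 against 36.7 and 38.2.

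Levels between members can be compared only per length, here as RPKM over the principal GENCODE transcript. In controls the order of mean RPKM was *Mt1* (67.1 ± 20.05), *Mt2* (36.3 ± 7.25), *Slc30a1* (14.2 ± 0.371), *Mtf1* (6.92 ± 0.0040) and *Mt3* (1.499 ± 0.238; SD, n = 2). In *Cnot3*-cKO cells the order was the same, at 146 ± 23.5, 68.1 ± 3.76, 13.1 ± 0.0211, 6.35 ± 0.185 and 3.99 ± 0.524 RPKM (SD, n = 2). In each group no neighbours in this order overlapped over the libraries. *Mt1* stood above 94.4% of 15807 ranked genes in controls and above 98.7% in *Cnot3*-cKO cells, and *Mt2* above 85.9% and 95%. *Mt3* stood above 29.1% and 40.3%. *Slc30a1* and *Mtf1* moved by fewer than 3 percentage points, from 66.2% to 65.3% and from 51.4% to 48.9%. The order of *Mt1* and *Mt2* depends on the length taken, since the principal transcript of *Mt1* has 549 bases and all its annotated exons together 1246. Over all annotated exons *Mt1* had 23.3 and 35.8 RPKM in controls against 57.1 and 71.8 RPKM in *Cnot3*-cKO cells, and *Mt2* had 27.1 and 36.0 against 56.9 and 61.5 RPKM, so that the neighbours overlapped. *Mt1* and *Mt2* together took 0.00442% and 0.00638% of reads in controls against 0.0107% and 0.0128% in *Cnot3*-cKO cells.

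The metallothioneins share a structure that the rule did not use. *Mt1*, *Mt2* and *Mt3* have 3 exons each, principal transcripts of 549, 511 and 536 bases, and coding parts of 186, 186 and 207 bases. Their 3′ UTRs, of 134, 141 and 136 bases, were longer than those of only 7.45%, 8.04% and 7.64% of 15542 tested genes, whose median was 980 bases. *Mtf1* and *Slc30a1* lie at the other end, with 3′ UTRs of 5457 and 3492 bases, longer than those of 97.3% and 90.4% of genes. The word ATTTA, the core of AU-rich elements that speed the decay of some mRNAs, occurred 0 times in the 3′ UTR of each metallothionein, 5 times in *Mtf1* and 6 times in *Slc30a1*. It was present in 65.8% of the 3′ UTRs, and short UTRs hold fewer words of any kind. The coding parts of *Mt1* and *Mt2* are identical at 148 of 186 positions (79.6%). The longest run of bases shared by the transcripts was 20 between *Mt1* and *Mt2*, 27 between *Mt1* and *Mt3* and 20 between *Mt2* and *Mt3*. Read lengths above these would tell the 3 genes apart, and how reads that match several genes were counted is not given in the sources used here.

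The cluster from *Mt4* to *Mt1* spans 43131 bases, and the genes within 100 kb of it were read for comparison, chosen by position after the members had been seen. edgeR called no neighbour at these thresholds. The flanking protein-coding genes had log2 fold changes of -0.16 for *Ogfod1* (adjusted p = 0.368), 0.27 for *Bbs2* (adjusted p = 0.153) and -0.21 for *Nup93* (adjusted p = 0.0952, edgeR). All 3 tested metallothioneins lay above these values. The other tested genes of the window, noncoding genes and a pseudogene, had values in both directions. *Gm45774*, antisense to *Mt2*, was at 0.89 (adjusted p = 0.0491), and *Gm39228*, downstream of *Mt1*, was at 1.09 on 15 to 46 reads per library (adjusted p = 0.236). Further out, *Gm45873* was at 0.28 (adjusted p = 0.773), the pseudogene *Rpl10-ps5* at 0.96 on 12 to 22 reads per library (adjusted p = 0.345) and *Gm45804* at -0.64 (adjusted p = 0.0967).

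**Figure D3:**
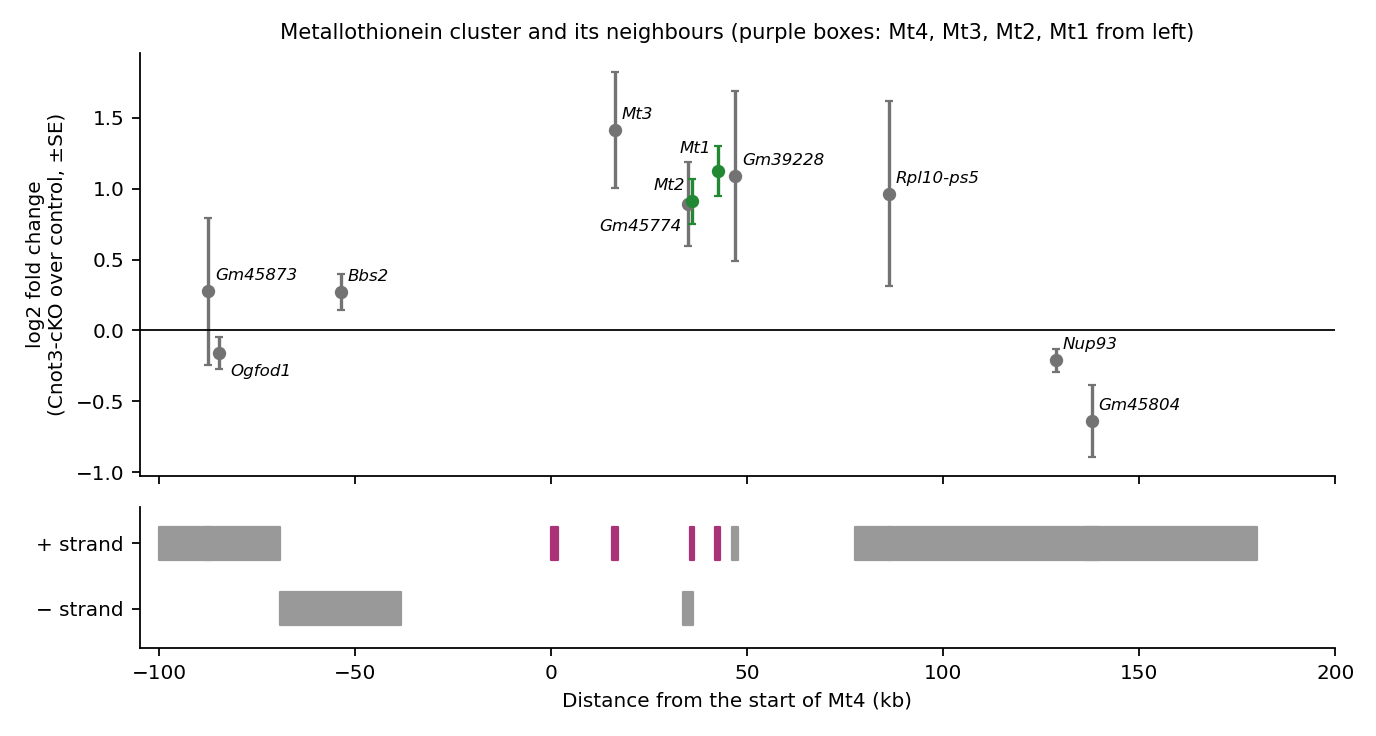
Log2 fold change (points, ± standard error; green where the adjusted p was under 0.01) of tested genes around the metallothionein cluster, against distance in kb from the start of *Mt4*, with gene extents by strand below. *Mt3*, *Mt2* and *Mt1* lie between 0.91 and 1.41, and the flanking genes *Ogfod1*, *Bbs2* and *Nup93* between -0.21 and 0.27.

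The other zinc exporters are the ZnT proteins of the SLC30 family, which move zinc out of the cytosol, into vesicles, the Golgi or the outside. Of 9 other family members listed, 8 were tested and 0 were called in either direction by edgeR, with a median log2 fold change of -0.26, where all tested genes had 0.01. At an unadjusted p under 0.05 there were 1 higher and 4 lower, where 17.4% of all tested genes were higher and 15.4% lower, and DESeq2 called 0. The exception in p was *Slc30a4*, a vesicular transporter and the one with the highest CPM (here and for the lists that follow, the mean over all 4 libraries), with 116 and 137 CPM in controls against 78.9 and 90.6 CPM in *Cnot3*-cKO cells. Its value was -0.58 on the log2 scale (standard error 0.11, adjusted p = 0.00267), which passes without the fold limit only. *Slc30a10*, a manganese exporter, had the lowest value at -1.04 (adjusted p = 0.0853), and *Slc30a2*, which loads zinc into vesicles, the highest at 0.69, with 9.26 and 9.89 CPM in controls against 15.8 and 15.0 CPM in *Cnot3*-cKO cells (adjusted p = 0.0139). *Slc30a8*, the transporter of insulin granules, had too few reads to be tested.

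Zinc importers of the SLC39 family bring zinc into the cytosol. Of 14 listed, 11 were tested and 0 were called by edgeR, with a median of -0.01. At an unadjusted p under 0.05 there were 3 higher and 2 lower, where 17.4% of all tested genes were higher and 15.4% lower. DESeq2 called 0 importers. Values ran from -0.52 in *Slc39a11* (adjusted p = 0.0177) to 1.20 in *Slc39a4*, the importer that gut cells use to take up zinc from the diet. *Slc39a4* had 1.49 and 1.78 CPM in controls against 3.27 and 4.26 CPM in *Cnot3*-cKO cells (adjusted p = 0.0167), so the groups did not overlap but it was not called. The importer with the highest CPM, *Slc39a6*, was at -0.10 (adjusted p = 0.452), with 134 and 125 CPM as group means. *Slc39a10*, a gene that MTF1 is known to repress when zinc is high, was at 0.23 (adjusted p = 0.0839).

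**Figure D4:**
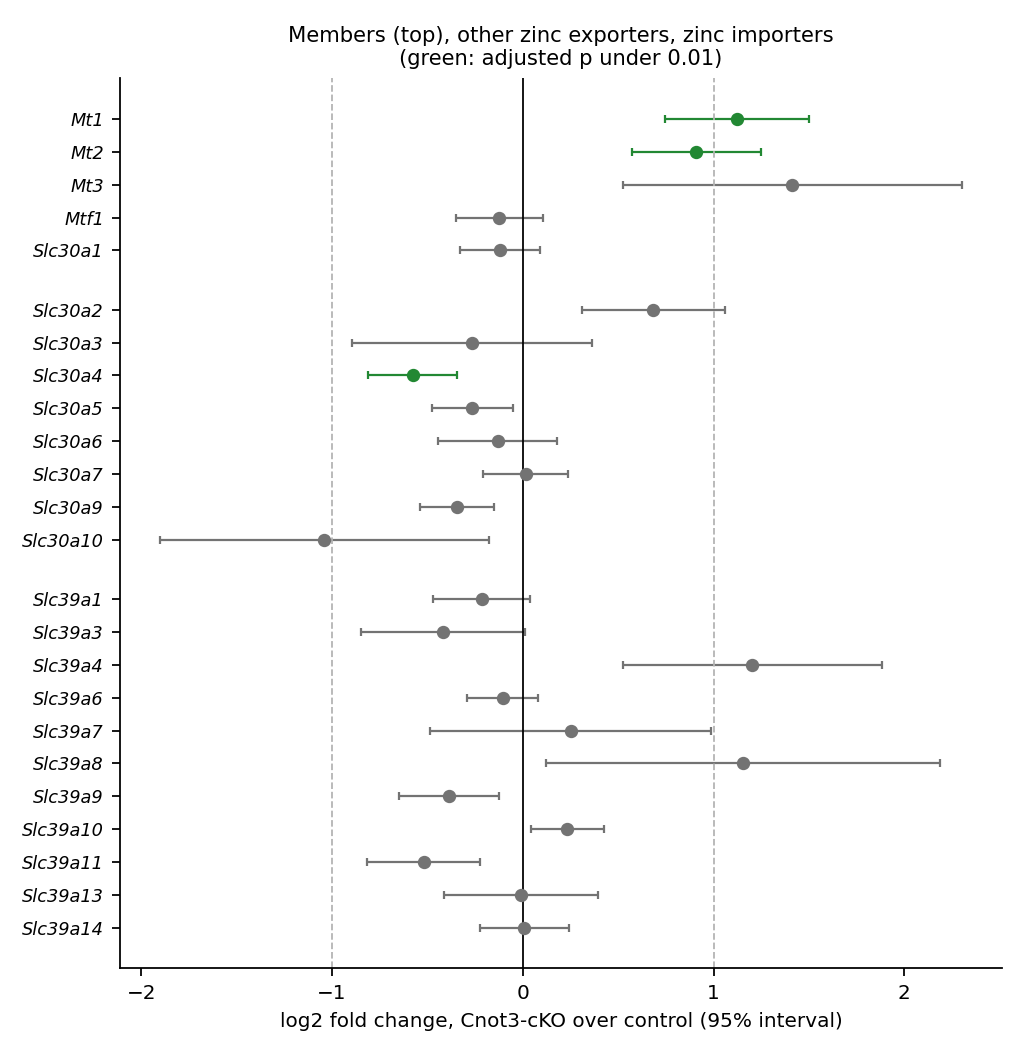
Log2 fold change of *Cnot3*-cKO over control with its 95% interval for the 5 members (top), 8 other zinc exporters and 11 zinc importers; dashed lines mark a 2-fold change, and green marks an adjusted p under 0.01. *Mt1* and *Mt2* are the green points above 0, and *Slc30a4*, at -0.58, is the green point below it.

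Among 9 other genes known as MTF1 targets, 1 gene was called higher and 0 lower, where 4.03% and 0.735% of all tested genes were. There were 5 higher and 2 lower at an unadjusted p under 0.05, where 17.4% of all tested genes were higher and 15.4% lower. The median of the list was 0.23, the value of *Slc39a10*. MTF1 represses that gene when zinc is high, so the list pools induced and repressed targets. The called gene was *Slc40a1*, the iron exporter ferroportin, which had 52.1 and 46.4 CPM in controls against 108 and 101 CPM in *Cnot3*-cKO cells (log2 fold change 1.08, standard error 0.10, adjusted p = 2.78e-05). *Gclc*, the catalytic subunit for glutathione synthesis and the gene with the highest CPM in the list, was at 0.64 (adjusted p = 1.93e-04) and passed without the fold limit, from a mean of 201 ± 3.58 to 314 ± 11.6 CPM (SD, n = 2 per group). *Slc30a10* had the lowest value here too. The list shares *Slc30a2* and *Slc30a10* with the exporters, *Slc39a10* with the importers and *Slc40a1* with the iron genes.

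Copper and iron genes were read because metallothioneins also bind copper and MTF1 has iron-handling targets. Of 11 tested copper genes 1 was called higher, *Cp*, the copper-carrying ferroxidase ceruloplasmin, from 4.52 ± 0.672 to 11.1 ± 0.640 CPM (SD, n = 2 per group; log2 fold change 1.29, adjusted p = 0.00123). The median of the copper list was -0.12, its lowest value was -0.36 in *Ccs* (adjusted p = 0.13), which loads copper onto SOD1, and its gene of highest CPM, *Sod1*, was at -0.17 (adjusted p = 0.209). Of 14 tested iron genes 2 were called higher, *Slc40a1* and *Hfe*, a regulator of hepcidin, at 1.56 (adjusted p = 0.00143). *Hmox1*, which breaks down heme, was at 0.43 and passed without the fold limit (adjusted p = 0.0071). *Tfrc*, the transferrin receptor and the iron gene of highest CPM, was at -0.13 (adjusted p = 0.385), *Slc11a2*, the iron importer DMT1, was lowest at -0.36 (adjusted p = 0.0556), and the median of the list was 0.32. Among the copper genes 1 was higher and 2 lower at an unadjusted p under 0.05, and among the iron genes 6 higher and 3 lower. Of all tested genes 17.4% were higher and 15.4% lower at that p. Over the 5 lists of zinc exporters, zinc importers, MTF1 targets, copper and iron genes together, 49 distinct genes were tested. Of these 3 were called higher and 0 lower, where 4.03% and 0.735% of all tested genes were.

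The other known inducers of *Mt1* and *Mt2* were read in the same way. Of 10 glucocorticoid-responsive genes 0 were called by edgeR or by DESeq2, 2 higher and 2 lower had an unadjusted p under 0.05, and the median log2 fold change was -0.05. The gene of highest CPM, *Tsc22d3*, encodes the glucocorticoid-induced leucine zipper and had the lowest value, with 410 and 476 CPM in controls against 288 and 296 CPM in *Cnot3*-cKO cells (log2 fold change -0.60, adjusted p = 5.83e-04). It and *Errfi1* (-0.45, adjusted p = 0.00785) passed lower without the fold limit, and the highest value was 0.27 in *Sgk1* (adjusted p = 0.14). Of 8 tested genes of the acute phase response through STAT3, 1 was called higher, the AP-1 gene *Junb*, from 0.646 and 0.666 CPM in controls to 2.03 and 4.40 CPM in *Cnot3*-cKO cells (log2 fold change 2.30, adjusted p = 0.00299). The signalling receptor *Il6st*, highest in CPM, was at -0.18 (adjusted p = 0.197), its partner *Il6ra* was lowest at -0.43 (adjusted p = 0.186), and the median was 0.44. Of these 8 genes 3 were higher and 0 lower at an unadjusted p under 0.05. For both lists, the shares of all tested genes at that p were 17.4% higher and 15.4% lower, and 4.03% and 0.735% were called. Zinc, glucocorticoid and cytokine levels were not measured.

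Summed levels of Sertoli, Leydig and macrophage markers were higher in *Cnot3*-cKO cells, as those of the metallothioneins were, and peritubular myoid and endothelial sums rose less. A sum is weighted to its most abundant genes, such as *Hsd3b1* among the Leydig markers, with 287 and 248 CPM against 656 and 712 CPM. Of all tested genes 4.03% were called higher. In bulk RNA, more cells of a type cannot be told apart from more RNA per cell, nor fewer cells from less RNA per cell. Of 16 Sertoli cell markers 14 were called higher, and their summed level was 445 and 457 CPM in controls against 1360 and 1358 CPM in *Cnot3*-cKO cells, with a median log2 fold change of 1.88. Of 7 tested Leydig cell markers 5 were called higher, and their sum was 376 and 328 CPM against 876 and 930 CPM, while *Insl3*, a defining Leydig marker, was listed at 0 in all 4 libraries. *Sco2*, a copper gene that cells in general use, was listed at 0 in all 4 as well, so a listed 0 need not mean that a transcript was absent. Of 10 macrophage markers 8 were called higher, with sums of 273 and 179 CPM against 596 and 488 CPM. Of 8 peritubular myoid markers 1 was called higher, with sums of 53.4 and 60.7 CPM against 67.4 and 76.0 CPM. Most of that control sum was *Mylk*, at 33.4 and 36.1 CPM against 31.4 and 32.5 CPM. The called marker, *Myl9*, was at 1.24, and the median of the list was 0.53. Of 9 tested endothelial markers 2 were called higher, with sums of 49.7 and 47.4 CPM against 66.2 and 74.3 CPM. Somatic cells of the testis also make metallothioneins, and the part of these cells in the *Mt1*, *Mt2* and *Mt3* values was not tested.

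Summed over their lists, the germ cell markers moved less. Of 12 pan-germ cell genes 0 were called by edgeR or by DESeq2, and 0 higher and 5 lower had an unadjusted p under 0.05 (15.4% of all tested genes were lower at that p), with sums of 5851 and 6343 CPM in controls against 5298 and 5564 CPM in *Cnot3*-cKO cells and a median log2 fold change of -0.11. Without the fold limit 2 passed lower, *Piwil2*, of the piRNA pathway, at -0.44 (adjusted p = 0.00128) and the stem cell factor *Sall4* at -0.42 (adjusted p = 0.00656), and 0 passed higher. Values ran from -0.45 in *Piwil4* (adjusted p = 0.015) to 0.28 in *Dppa4* (adjusted p = 0.154), and *Dazl*, an RNA-binding protein gene with the highest CPM, was at -0.21 (adjusted p = 0.084). Of 12 markers of undifferentiated spermatogonia 2 were called higher and 1 lower, where 4.03% and 0.735% of all tested genes were. The sums of these markers overlapped, at 917 and 791 CPM against 840 and 850 CPM. *Id4*, whose reporter was used for the sort, was called higher at 1.04 (adjusted p = 4.05e-04), as was *Eomes*, a marker of a stem cell subset, at 1.39 (adjusted p = 0.00357). *Nanos3* was called lower at -1.06 (adjusted p = 0.00118), and *Zbtb16*, highest in CPM over all 4 libraries though not in *Cnot3*-cKO cells, was at -0.82 (adjusted p = 1.93e-04). Of these 12 markers, 4 passed higher and 2 lower without the fold limit, where 6.21% of all tested genes passed higher and 4.7% lower. Those passing higher include *Gfra1* at 0.90 (adjusted p = 3.68e-05), from a mean of 93.3 to 174 CPM, and *Etv5* at 0.54 (adjusted p = 0.00452). With libraries scaled to the pan-germ cell genes, which moves the median of all tested genes to 0.12, *Mt2* was called as well, at 1.03.

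**Figure D5:**
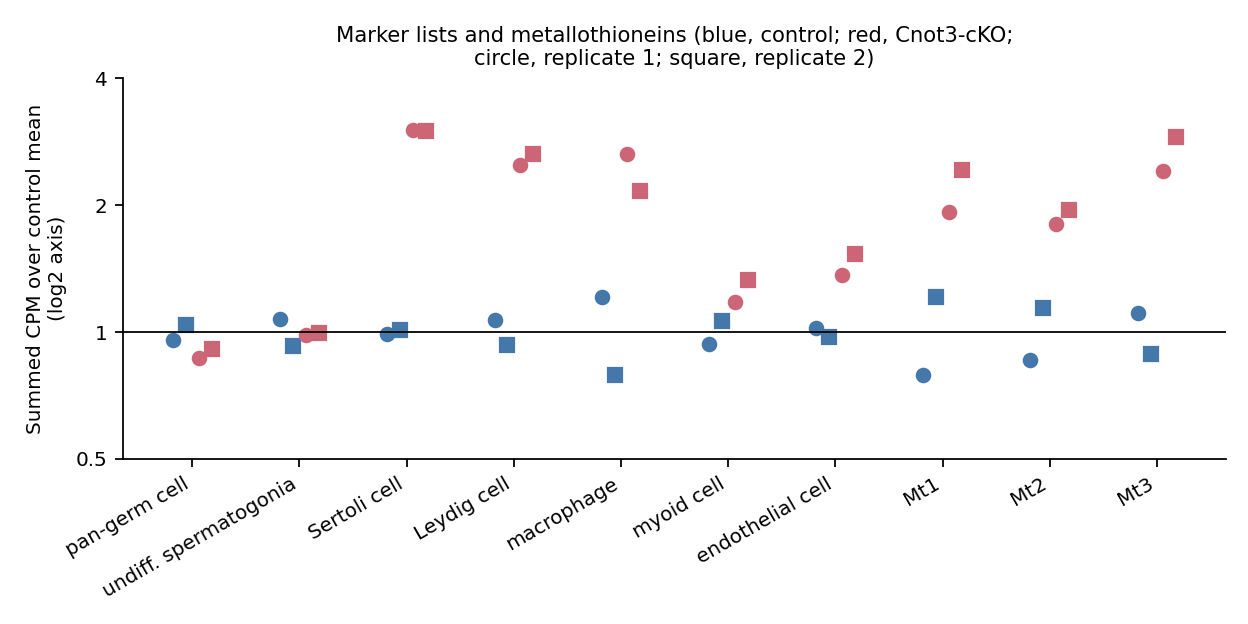
Summed CPM of each marker list, and CPM of *Mt1*, *Mt2* and *Mt3*, divided by the mean of the controls, on a log2 axis; blue is control, red *Cnot3*-cKO, circles replicate 1 and squares replicate 2. Sertoli, Leydig and macrophage sums and the 3 metallothioneins lie above the controls in both *Cnot3*-cKO libraries. The undifferentiated spermatogonial sums overlap and the pan-germ cell sums lie slightly below, although single markers of both lists moved in either direction.

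The order of the control libraries differed among the metallothioneins and among the marker sums. *Mt1* and *Mt2* were higher in control replicate 2, at 44.6 and 21.2 CPM, than in control replicate 1, at 29.1 and 15.9 CPM. The Sertoli sum was only slightly higher there, at 457 against 445 CPM, and the peritubular myoid sum was 60.7 against 53.4 CPM. *Mt3*, at 0.713 against 0.894 CPM, was lower in control replicate 2. So were the macrophage (179 against 273 CPM), Leydig (328 against 376 CPM) and endothelial (47.4 against 49.7 CPM) sums. The pan-germ cell sum was higher in control replicate 2 (6343 against 5851 CPM) and the undifferentiated spermatogonial sum lower (791 against 917 CPM). In *Cnot3*-cKO cells *Mt1*, *Mt2* and *Mt3* were all higher in replicate 2. The same held for the Leydig (930 against 876 CPM), endothelial (74.3 against 66.2 CPM), peritubular myoid (76.0 against 67.4 CPM) and both germ cell sums. The macrophage sum was lower (488 against 596 CPM), and the Sertoli sums were close (1358 against 1360 CPM).

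The genes whose levels followed those of *Mt1* most closely over the 4 libraries were found by the distance between log2 CPM profiles centred on each gene's mean, among 15390 other genes with a mean log2 CPM of at least 1. They were *Mgarp*, a mitochondrial protein of steroid-making cells (distance 0.0658), *Gstt1*, a glutathione transferase (0.0936), *Bola1*, a mitochondrial protein (0.105), *Rapgef3*, which encodes the cAMP sensor EPAC1 (0.143), and *Tmem255a* (0.15). *Mgarp* had 11.6 and 16.7 CPM in controls against 28.2 and 34.7 CPM in *Cnot3*-cKO cells, and it was called higher, as was *Rapgef3*. For *Mt2* the nearest were *Ccdc151* (0.0428), *Aldh1l1*, an enzyme of folate metabolism (0.0597), *Bex2* (0.0615), *Gm23472* (0.0711) and *Zfp282* (0.0743). *Aldh1l1* had 5.49 and 7.63 CPM in controls against 11.4 and 12.6 CPM in *Cnot3*-cKO cells and was not called. With 4 libraries in 2 groups, many genes share such a profile, and these distances describe likeness only.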

How the data were processed

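RNA of sorted ID4-EGFP+ cells was sequenced for 2 control and 2 *Cnot3*-cKO libraries with a stranded total RNA kit. The authors filtered reads on quality, aligned them to mm10 with STAR and deposited featureCounts read counts per GENCODE M24 gene, not normalized. Settings for strand and for reads matching several genes are not given in the sources used here. Counts were compared with edgeR 4.0.16 in R 4.3.3 (TMM scaling, default expression filter, quasi-likelihood F test, two-sided, Benjamini-Hochberg adjustment over 23952 genes, no covariates). The study used DESeq2, and DESeq2 1.42.0 was an alternative. Standard errors are the log2 fold change over the root of F. Gene positions and principal transcripts came from GENCODE M21 on GRCm38, promoters from RefSeq. Named genes were the members, *Cnot3*, and from each list the called genes, the one with the highest mean CPM and those with the highest and lowest fold change, plus the 5 nearest profiles of *Mt1* and *Mt2*; other names were chosen after their values were seen. For the marker lists only sums and selected genes are given. The members and lists were chosen with earlier results of these data known. Totals of 22192964 to 43378493 reads limit the precision of *Mt3* and *Mt4*. The study's single-cell RNA-seq was not analysed here.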

Additional observations from a re-analysis of the deposited data

How the results depend on the processing

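*Mtf1* and *Slc30a1* stayed uncalled and below 0 under all 18 alternatives, from -0.162 to -0.00975 and from -0.162 to -0.00627, and no member changed direction under any alternative run for it. *Mt1* ranged from 0.834 to 1.46, both ends from leaving out 1 library. It lost its call under DESeq2 (1.09), DESeq2 with a prior (0.863) and glmTreat (1.12, a test against 2-fold, stricter by construction), without control replicate 1 (0.834) and without *Cnot3*-cKO replicate 2 (0.944). Its adjusted p ran from 1.72e-19 to 1, the lowest from a fit on 3 libraries, which has a single residual degree of freedom and leaves an arm with 1 library assumed to vary like the other group. *Mt2* gained a call with pan-germ cell scaling (1.03), with no fold limit (0.909) and without control replicate 2, and ranged from 0.704 to 1.12 as libraries were left out. *Mt3* gained one at an adjusted p under 0.05 (1.41), was 0.821 under DESeq2 with a prior, which shrinks fold changes by construction, ranged from 1.25 to 1.57 as libraries were left out, and was not tested at a mean count of at least 50. Members called higher, 1 here, numbered 2 with pan-germ scaling, an adjusted p under 0.05 or no fold limit, 0 with DESeq2, DESeq2 with a prior or glmTreat, and 0 to 2 as libraries were left out. Other pathway genes called higher, 3 here, numbered 0 with glmTreat and 5 with no fold limit. Those called lower, 0 here, numbered 1 with no fold limit and 0 to 1 as libraries were left out, the 1 without *Cnot3*-cKO replicate 1. Over all genes, 965 were higher and 176 lower; glmTreat gave 87 and 5, no fold limit 1488 and 1125, DESeq2 929 and 185, and no filter 1250 and 285. The labels do not say whether libraries of the same replicate number belong together. Over 15391 genes, the correlation between groups of how replicate 1 departs from its group mean was 0.0829. That value rests on a single difference per group and cannot decide whether the libraries are paired. The replicate block gave 1155 higher and 217 lower and changed no member's call. Where no construction is named, the cause was not tested.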
